A study of Homo sapiens with 4 samples.

Results

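The regions described here lost H3K4me3 in MDA-MB-231 cells treated with 2.5 μM Tat-SID. They lay at transcript starts of non-coding genes, away from the starts of protein-coding genes. The MDA-MB-231 line, a human breast adenocarcinoma line, is triple-negative: it lacks the estrogen and progesterone receptors and HER2 amplification. Tat-SID is a decoy peptide that joins the SIN3 interaction domain of the MAD protein to a stretch of the Tat protein that carries it into cells. Native ChIP-Seq for H3K4me3, on chromatin that was not crosslinked, was sequenced from untreated cells, from cells given 1 μM Tat-SID and from cells given 2.5 μM Tat-SID, beside input DNA. Each condition had 1 library, and both treated libraries were compared with the same untreated library. The labels give no treatment time, and the study speaks of treatment for 3 days when it discusses this loss.

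A region was selected on the authors' own call of reduced H3K4me3 at 2.5 μM and on its position. It had to hold the transcription start site (TSS) of at least 1 transcript annotated by GENCODE on GRCh37, with no TSS of a protein-coding gene inside and no protein-coding gene start within 3 kb. Of 2063 reduced regions, 135 met this rule, which is 6.54% (exact Clopper-Pearson 95% confidence interval 5.51 to 7.70%, counting error over regions only). The loss itself was therefore used to choose the regions and is not a result. The lists hold positions and no measured value, so neither the size of the loss nor its error could be estimated, and no comparison between conditions could be tested. Markers of the cell line could not be checked in lists of changed regions alone.

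H3K4me3 is the trimethylated form of lysine 4 on histone H3, and it marks the start sites of transcribed genes of every class. Long non-coding RNA (lncRNA) genes are transcribed by RNA polymerase II from promoters of their own. Some act as RNA, as MALAT1 and NEAT1 do in nuclear bodies. Others are host genes, whose long transcripts are cut to release microRNAs (miRNAs), small RNAs that bind messenger RNAs mainly through their seed, bases 2 to 8, and lower their translation and stability.

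The miRNAs below are from the let-7, miR-100/99a, miR-125b and miR-181 families. They are shown because hosts of each family had a transcript TSS in a reduced region at more than 1 locus. At MIR100HG, MIR99AHG and MIRLET7BHG these TSSs lay inside the span of the gene, away from its annotated start. Mature sequences are from RefSeq and are written 5′ to 3′ in lower case, with the seed in capitals.
let-7a-5p: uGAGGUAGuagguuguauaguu
let-7b-5p: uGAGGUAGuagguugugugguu
let-7i-5p: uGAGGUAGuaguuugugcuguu
miR-100-5p: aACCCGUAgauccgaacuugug
miR-99a-5p: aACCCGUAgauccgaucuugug
miR-125b-5p: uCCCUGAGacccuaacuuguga
miR-181a-5p: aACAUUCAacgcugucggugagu
miR-181b-5p: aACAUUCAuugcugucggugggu

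The seed GAGGUAG of let-7 was shared by 8 miRNA genes in 5 host genes with a TSS in a reduced region, namely MIR100HG, MIR99AHG, MIRLET7A1HG, MIRLET7BHG and MIRLET7IHG. At MIRLET7BHG, the let-7a and let-7b genes lie within the span of the gene only. The MIRLET7BHG transcript that starts in the region does not contain them. The seeds of miR-100 and miR-99a are the same 7 bases, and so are those of miR-181a and miR-181b. MIR100HG and MIR99AHG each carry 1 let-7 gene, 1 gene of the miR-100/99a seed and 1 miR-125b gene. MIR181A1HG and MIR181A2HG each carry a miR-181a and a miR-181b gene. A second set is shown because its hosts, other than MIR17HG, were also on the list of regions reduced at 1 μM.
miR-29a-3p: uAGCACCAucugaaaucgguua
miR-29b-3p: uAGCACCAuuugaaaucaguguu
miR-221-3p: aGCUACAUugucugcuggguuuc
miR-222-3p: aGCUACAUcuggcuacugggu
miR-15a-5p: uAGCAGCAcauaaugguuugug
miR-16-5p: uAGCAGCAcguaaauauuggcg
miR-17-5p: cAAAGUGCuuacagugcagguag
miR-20a-5p: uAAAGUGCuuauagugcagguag
miR-146a-5p: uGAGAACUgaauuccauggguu

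These belong to LINC-PINT (miR-29a and miR-29b), MIR222HG (miR-221 and miR-222), DLEU2 (miR-15a and miR-16), MIR17HG (miR-17 and miR-20a) and MIR3142HG (miR-146a). In each of the first 4 host genes the pair shares its seed.

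Promoters of 4 of the regions are shown next, chosen because they belong to miRNA hosts, to one of the 10 longest regions or, for LINC00973, to a region on both lists, and carry a match to a searched motif. Each runs from 250 bases before the TSS to 50 bases from it onward, 5′ to 3′ on the strand of the gene, with matches in capitals. In MIR181A1HG (chr1:198906501-198906800, minus strand) the capitals mark the AP-1 motif TGACTCA and the NF-Y motif CCAAT. In LINC00973 (chr3:98699652-98699951, plus strand) they mark AP-1 on the other strand. In LINC-PINT (chr7:130598020-130598319, minus strand) they mark the E-box CACGTG and NF-Y on the other strand, and in NEAT1 (chr11:65190019-65190318, plus strand) a TATA box, TATAAA. All positions are on GRCh37.
MIR181A1HG: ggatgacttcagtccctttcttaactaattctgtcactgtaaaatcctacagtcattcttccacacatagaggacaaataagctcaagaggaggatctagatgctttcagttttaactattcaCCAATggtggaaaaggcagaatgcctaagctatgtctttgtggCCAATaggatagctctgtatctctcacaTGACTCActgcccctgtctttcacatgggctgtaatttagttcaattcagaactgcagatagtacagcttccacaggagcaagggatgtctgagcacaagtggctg
LINC00973: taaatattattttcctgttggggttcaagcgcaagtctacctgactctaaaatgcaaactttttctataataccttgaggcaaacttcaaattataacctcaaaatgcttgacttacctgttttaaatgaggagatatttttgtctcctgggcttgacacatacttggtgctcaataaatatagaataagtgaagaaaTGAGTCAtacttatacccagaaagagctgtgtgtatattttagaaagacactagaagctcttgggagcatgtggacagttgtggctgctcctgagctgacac
LINC-PINT: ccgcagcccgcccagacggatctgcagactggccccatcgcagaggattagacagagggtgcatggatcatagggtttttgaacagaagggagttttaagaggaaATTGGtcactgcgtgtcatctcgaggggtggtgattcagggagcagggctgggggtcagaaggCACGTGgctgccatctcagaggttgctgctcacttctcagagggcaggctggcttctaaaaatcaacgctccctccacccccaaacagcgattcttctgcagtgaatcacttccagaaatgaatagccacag
NEAT1: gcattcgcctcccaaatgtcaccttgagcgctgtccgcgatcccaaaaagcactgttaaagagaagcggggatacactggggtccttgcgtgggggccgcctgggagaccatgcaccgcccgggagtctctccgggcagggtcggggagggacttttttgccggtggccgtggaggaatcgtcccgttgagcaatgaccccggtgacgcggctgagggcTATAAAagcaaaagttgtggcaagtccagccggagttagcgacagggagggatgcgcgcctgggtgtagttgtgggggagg

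The 135 regions held start sites of 195 non-coding genes and 1480 of their transcripts. A gene is said to start in a region when any of its transcripts starts there, even if the gene's own start lies elsewhere. For small RNA genes the annotated 5′ end counts as the start, also where the RNA is released from a host transcript. Of the genes, 156 were lncRNA genes, 22 were pseudogenes, 16 were small RNA genes and 1 was an unclassified transcript (GENCODE type TEC). A lncRNA TSS was present in 121 regions. The other 14 held pseudogenes only (10 regions, such as VENTXP2, HNRNPKP4 and IFITM3P1), small RNA genes without a lncRNA (3 regions, at RNU4-1 and RNU4-2, snoU13 and RN7SKP11) or the pseudogene SMG1P2 with an unclassified transcript. A single gene started in 91 regions, 2 genes in 29 and 3 or more in 15, and 30 regions had start sites on both strands. Of the 195 genes, 60 have no name and are given by their Ensembl identifier. Among all 64486 annotated genes, 4.89% had a transcript TSS inside any reduced region, and among the 18934 lncRNA genes 4.38% did. At 1 μM the share of lncRNA genes was 0.417%. The regions lay on 22 chromosomes, most on chromosome 6 (16 regions) and chromosome 5 (15), and none of the 49 reduced regions of chromosome 15 was among them. As a share of the reduced regions of a chromosome they were highest on chromosomes 22 (18.2%), 21 (17.6%) and 13 (17.5%), with 2, 3 and 10 regions. On the short arm of chromosome 6, 9 of the regions, chosen for mention after their positions were seen, fell within 5.48 Mb (chr6:26330151-31806649) that held 26 reduced regions in all, among them HCG14, HCG15, LINC01556 and SNHG32.

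**Figure D1:**
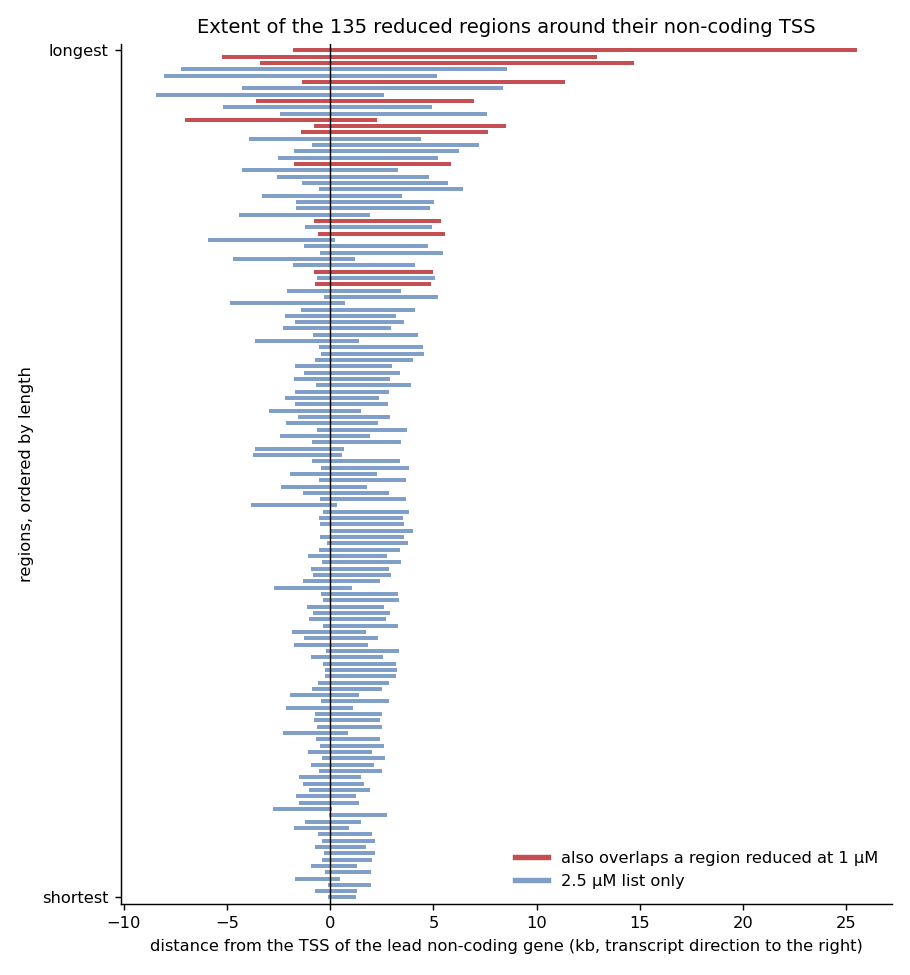
Extent of the 135 regions around the TSS of their lead non-coding gene, 1 line per region, in kb with the direction of transcription to the right. Regions that overlap one reduced at 1 μM are in red and the others in blue. Most lines reach further to the right of the TSS than to the left, as in 108 of 135 regions, and the red lines are all in the upper part, the shortest being 5649 bp.

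The regions reached mainly downstream of their TSS, on the transcribed side. Each region is named by a lead gene, a lncRNA before a small RNA gene or pseudogene, then a named gene before an unnamed one, then the gene with most transcripts starting inside. Its TSS was that of the transcript Ensembl marks as canonical if this started inside the region, and otherwise the most upstream TSS inside. The latter choice makes the downstream extent as long as it can be. The TSS could lie well inside the gene, as at MIR100HG, LINC-PINT and MIR99AHG. From this TSS, the median extent was 1205 bp upstream and 2927 bp downstream, and 108 of 135 regions (80.0%) reached further downstream. This was close to the reduced regions with a protein-coding TSS inside, where 1423 of 1750 (81.3%) did and the medians were 1678.5 and 3236 bp. The median length was 4249 bp (exact interval of the median 3899 to 4549 bp), with quartiles at 3424 and 5899 bp and a range of 1349 to 27349 bp. The 1750 regions with a protein-coding TSS had a median of 5099 bp (5049 to 5199 bp), and the 176 regions with no annotated TSS one of 3299 bp (2899 to 3499 bp). Although the median was lower than with a protein-coding TSS, long regions made up a larger share. Over 10 kb were 11 of 135 (8.15%), 53 of 1750 (3.03%) and 5 of 176 (2.84%), respectively. Lengths were part of how regions were called, so these figures describe the lists, and no difference between the classes of region was tested here or in what follows.

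The longest region of the 135, which was also the longest of all 2063, covered 27349 bp at MIR100HG (chr11:122025801-122053149), a lncRNA gene that hosts miR-100, let-7a-2 and miR-125b-1. It began 1809 bp upstream of its TSS and ran 25539 bp downstream, and covered 5.18% of the span of the gene. This TSS was that of a transcript starting inside the gene (chr11:121899033-122427429, minus strand), so both sides lay within MIR100HG. LINC-PINT, a lncRNA gene induced by p53 that hosts miR-29a and miR-29b-1, had a region of 18149 bp (chr7:130585151-130603299), which also held a TSS of LINC00513. MIR222HG, host of miR-221 and miR-222, had one of the same length (chrX:45614951-45633099). The pseudogene VENTXP2 had 15799 bp (chr13:84473351-84489149). A region of 13249 bp on chromosome 22 (chr22:46460601-46473849) held start sites of LINC02939, MIRLET7BHG and ENSG00000289044. MALAT1, an abundant nuclear RNA, lay wholly inside a region of 12749 bp (chr11:65263751-65276499) together with its antisense gene TALAM1. NEAT1, the RNA that builds paraspeckles, had 12649 bp (chr11:65186001-65198649) that covered 36.9% of the gene. LINC03061 (11049 bp), DLEU2 with DLEU1 (10549 bp) and ENSG00000272121 with ENSG00000271192 (10149 bp) completed the 10 longest. Of these 10 leads, LINC-PINT, MIR222HG, MIR100HG, VENTXP2, LINC02939 and LINC03061 were not CpG-rich at the TSS and the remaining 4 were.

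**Figure D2:**
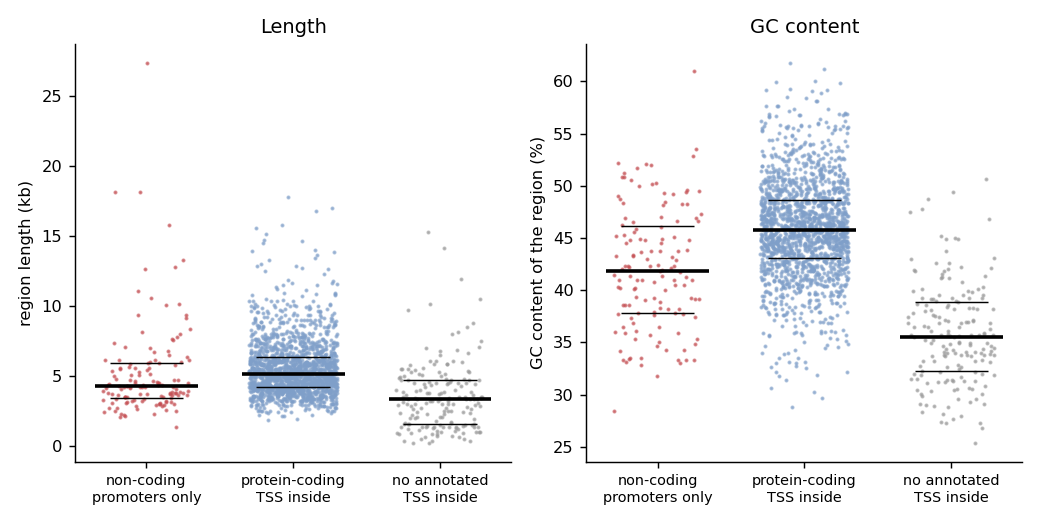
Length in kb (left) and GC content in percent (right) of every reduced region at 2.5 μM, 1 point per region, for regions at non-coding promoters only (135), with a protein-coding TSS inside (1750) and with no annotated TSS (176). Thick lines are medians and thin lines quartiles, and the median GC content is 41.9% for non-coding promoters, 45.8% with a protein-coding TSS and 35.6% with none.

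Compared with regions at protein-coding genes, these had a lower GC content at the median and a smaller share of CpG-rich lead TSSs. The median GC content was 41.9%, against 45.8% with a protein-coding TSS and 35.6% with no TSS. A TSS was called CpG-rich when GC content exceeded 50% and the observed to expected CpG ratio exceeded 0.6 in the 1 kb on either side. This held for 30 of 135 leads (22.2%, 15.5 to 30.2%), and for 1217 of 1750 (69.5%) where a protein-coding TSS was inside. The share of leads was above this interval with a window of 0.5 kb (34.1%) and when regions were chosen by gene starts only (37.4%). MIR17HG had the highest CpG ratio of the 30, at 1.01 with a GC content of 67.0%, followed by MIRLET7IHG at 0.956. MALAT1, NEAT1, DLEU2, PVT1, NORAD, SNHG32, LINC00511 and LINC01116 were CpG-rich as well. MIR100HG was low in both, with a CpG ratio of 0.150 and a GC content of 38.3%, and LINC00973 had a GC content of 33.2%.

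Most regions lay far from the starts of protein-coding genes. The rule had already left out any region with such a start within 3 kb, so these distances are partly set by the selection. The median distance to the nearest protein-coding gene start was 93.6 kb (quartiles 31.96 and 282 kb), and 66 of 135 regions were over 100 kb away. MIR924HG was the farthest, at 2154 kb from PIK3C3. Only 8 regions were under 10 kb away. The lead TSS lay outside any protein-coding gene in 124 regions, antisense inside one in 8, such as ARHGAP29-AS1, PELO-AS1 and MIR181A2HG, and on the same strand inside one in 3. In 32 of 135 regions (23.7%) the nearest protein-coding gene had a reduced promoter of its own, meaning a reduced region within 3 kb of its start. Some of these regions share a nearest gene, as those of MIR99AHG share USP25. Counted per gene instead, 9.5% of all protein-coding genes had such a promoter. Among the 32 regions were PVT1 beside MYC (58.2 kb), MIR3142HG beside PTTG1 (44.6 kb), LUCAT1 beside ARRDC3 (68.6 kb) and LINC00973 beside DCBLD2 (78.6 kb). Around the 3 kb limit, the nearest regions kept were ENSG00000289637, 3.066 kb from the heat shock gene HSPA1B, SNHG32, 6.036 kb from it, and ENSG00000273132, 6.446 kb from LRP11. The limit left out 2 regions, at SFTA1P (2.861 kb from CELF2) and at ENSG00000251393 (2.778 kb from NUMB).

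Hosts of miRNAs were found at 27 of the 135 regions. Their 23 host genes contained 55 miRNA genes on the same strand. By transcript span alone there were 26 regions (19.3%), against 126 of 1750 (7.20%) with a protein-coding TSS inside and 0 of 176 with no TSS, where none can be by definition. Of these host genes 22 were lncRNA genes and ZNRF2P1 was a pseudogene, and 2 further lncRNA genes, NCAL1 and ENSG00000275180, span the same hairpins as a host already counted. Thus 24 of the 156 lncRNA genes that start in these regions (15.4%) contain a miRNA gene, and of all 18934 lncRNA genes 212 (1.12%) do. Host genes were one of the lists drawn up with these results known, so the shares describe and support nothing beyond themselves. Of the 31 annotated genes of that list, 13 started in one of the regions, as did 0.824% of all lncRNA genes, VMP1 started in another reduced region, and 7, VMP1 included, started in a region reduced at 1 μM.

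The miRNA hairpins mostly lay outside the regions, which stop short of them. Only 6 hairpins were wholly inside, those of MIR17, MIR18A and MIR19A in MIR17HG, of MIRLET7I, of MIR99A and of MIR30A. MIR17HG encodes the miR-17-92 cluster, which MYC induces. Its region of 4649 bp (chr13:91998701-92003349) ran 3398 bp past the TSS and ended within the cluster, 97 bp before MIR19B1 and 219 bp before MIR92A1. MIR23AHG, host of miR-23a, miR-27a and miR-24-2, had a region of 7999 bp that ended 28 bp before the hairpin of MIR23A. At MIR100HG the 25539 bp downstream extent stopped 2785 bp before MIR100 and 8500 bp before MIRLET7A2. FTX, a lncRNA gene on chromosome X that hosts MIR374A, MIR545, MIR374B and MIR421, had a region of 4149 bp that ended 2359 bp before MIR374A. At MIR181A1HG the gap was 69769 bp, at DLEU2 25914 bp to MIR15A and at MIR222HG 8421 bp to MIR222. MIR99AHG was the host with the most regions, 3 in all. The region of 7349 bp held MIR99A and ended 99 bp before MIRLET7C, while the one of 4249 bp lay 341560 bp from MIR99A. MIR100HG and LINC00472 each had 2 regions at different start sites. CYTOR and MIR4435-2HG, 2 near-identical loci, are both listed as hosts of MIR4435-1 and MIR4435-2 because the hairpins match both loci, so the assignment is uncertain.

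**Figure D3:**
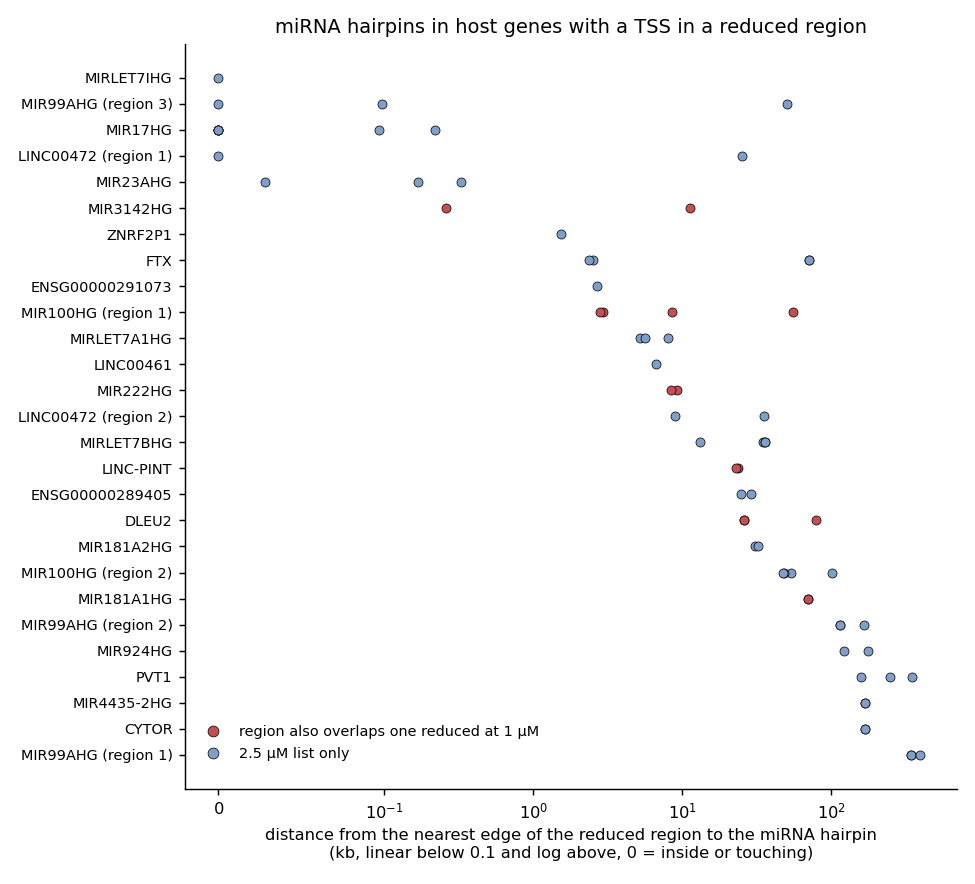
Distance in kb from the nearest edge of the region to each miRNA hairpin, 1 row per host gene and region, on an axis that is linear below 0.1 kb and logarithmic above, with 0 for hairpins inside or touching the region. Red points belong to regions that overlap one reduced at 1 μM and blue points to the others; only MIRLET7IHG, MIR99AHG, MIR17HG and LINC00472 have points at 0.

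The other lists were also drawn up with earlier results of these data known, so their shares describe and support nothing beyond themselves. The introns of small nucleolar RNA host genes release RNAs that guide ribosomal RNA modification. Of the 22 listed host genes of this kind, 2 were in the regions, SNHG8 and SNHG32, against 0.824% of all lncRNA genes. Both were at 2.5 μM only. SNHG26, which was not on the list and is named after its values were seen, also started in one of the regions, together with SNORD93. The SNHG32 region of 5099 bp also held the annotated 5′ ends of SNORD48 and SNORD52, which are counted here as start sites. A further 5 genes of the list, SNHG1, SNHG3, SNHG5, GAS5 and ZFAS1, started in reduced regions of other kinds. Of 45 annotated lncRNAs studied in breast cancer and epithelial to mesenchymal transition, 8 were at the regions, beside 0.824% of all lncRNA genes, and 2 more, CRNDE and ZEB2-AS1, were in other reduced regions. The 8 were MALAT1, NEAT1, PVT1 (8099 bp), LUCAT1 (3499 bp), CYTOR (7749 bp), NORAD (4099 bp), LINC00511 (5549 bp) and LINC01116 (6749 bp). NORAD is an abundant RNA that binds PUMILIO proteins, and PVT1 lies beside MYC. MALAT1 was the only one of them also reduced at 1 μM. Of 20 annotated housekeeping non-coding RNA genes, 4 started in the regions, as did 0.302% of all annotated genes. These were RNU4-1 and RNU4-2, the U4 RNA genes of the spliceosome, in 1 region of 4099 bp, RN7SL2, an RNA of the signal recognition particle, in a region of 3599 bp, and RNY5, a Y RNA, in one of 2899 bp. A further gene of that list, RN7SK, started in another reduced region. The regions with most genes were at GLUD1P3 with 6, MIRLET7IHG and LINC00680 with 4 each, and 12 regions had 3 each. Of those 12, LINC02939 and MALAT1 were the longest.

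The list at 1 μM, called against the same untreated library, held regions at 13 of the 135 (9.63%, 5.23 to 15.9%). Of all 2063 reduced regions, 6.93% overlapped one on that list. The values were 117 of 1750 (6.69%) with a protein-coding TSS inside and 13 of 176 (7.39%) with no TSS. Seen from the other side, 12 of the 141 regions on the 1 μM list met the same rule on position. Because both lists share the untreated library, these overlaps are counts and no test was made of them. The 13 regions had a median length of 9299 bp at 2.5 μM, and the other 122 one of 4124 bp. The shortest of the 13 had 5649 bp, and 25 regions longer than it were not on the 1 μM list.

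Apart from ARHGAP29-AS1, the 13 regions were of nearly the same length in both lists. Because the lists share the untreated library, their lengths are not independent, and no test was made of them. At MIR100HG the region was 26999 bp at 1 μM and 27349 bp at 2.5 μM. At LINC-PINT it was 18449 and 18149 bp, and at MIR222HG 18499 and 18149 bp. At MALAT1 it was 12549 and 12749 bp, and at DLEU2 9999 and 10549 bp. MIR181A1HG (9749 and 9299 bp) and MIR3142HG (7699 and 7649 bp) were shorter at 2.5 μM. MANCR, a lncRNA gene on chromosome 10, had 9099 bp in both. The unnamed genes ENSG00000287023 (5849 and 6149 bp) and ENSG00000272046 (6399 and 6149 bp), and LINC00973 (5899 and 5799 bp) and LINC02742 (6149 and 5649 bp), followed. At ARHGAP29-AS1 1 region of 18699 bp at 1 μM corresponded to 2 regions at 2.5 μM, which lay 451 bp apart. The one at the TSS had 9299 bp and its neighbour (chr1:94696901-94705949) had 9049 bp, so together they covered 18348 bp. This split gave the lowest ratio of the length at 2.5 μM to that at 1 μM, 0.497, and the ratios ran up to 1.06 with a median of 0.984. With both regions of ARHGAP29-AS1 counted, the ratios of the 13 ranged from 0.919 to 1.06. Taken singly, the region was longer at 2.5 μM in 4, shorter in 8 and equal in 1. A miRNA host was present in 6 of the 13 (46.2%) and in 21 of the other 122 (17.2%). None of the 135 overlapped any of the 3 regions with increased H3K4me3 at 2.5 μM.

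**Figure D4:**
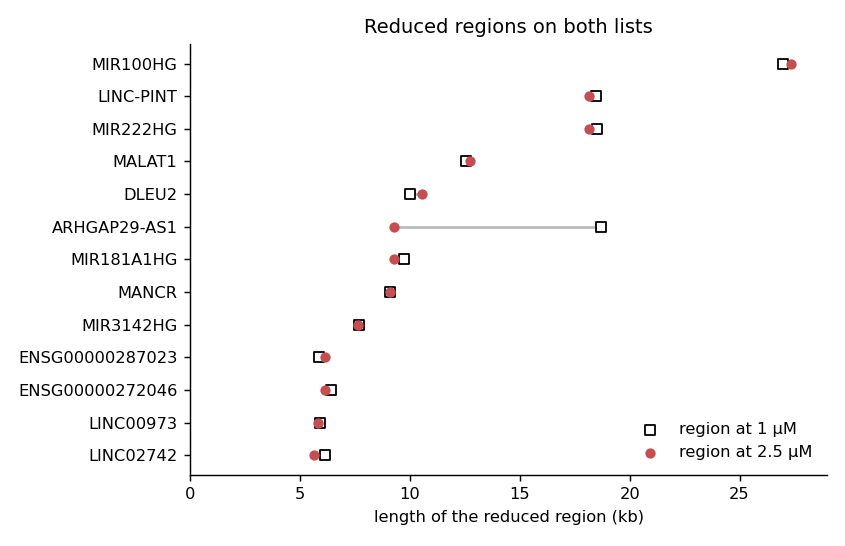
Length in kb of the 13 regions present on both lists, open squares at 1 μM and filled circles at 2.5 μM, ordered by length at 2.5 μM. The pairs lie close together except ARHGAP29-AS1, with 18699 bp at 1 μM against 9299 bp at 2.5 μM, where a neighbouring region of 9049 bp at 2.5 μM is not drawn.

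A set of 8 motifs was searched on both strands in the 300 bases of each lead promoter, and in the same window at 20098 protein-coding and 18823 lncRNA genes. The AP-1 motif TGACTCA was in 17 of the 135 promoters (12.6%), and in 3.98% of protein-coding and 5.79% of lncRNA promoters. Of the 1750 reduced regions with a protein-coding TSS, 3.89% of the lead promoters held it. Promoters with it included MIR181A1HG, MANCR, LINC00973, LINC02742, LUCAT1, NORAD, CYTOR and MIR4435-2HG. CYTOR and MIR4435-2HG are near-identical loci with the same AP-1 and NF-Y matches, so that sequence is counted more than once. The AP-1 motif was in 5 of the 13 promoters on both lists and in 12 of the other 122. Only 2 of the 17 were CpG-rich. Counted over the whole regions, the motif occurred 1.91 times per 10 kb, against 1.53 with a protein-coding TSS and 2.03 with no TSS. The E-box CACGTG of MYC, MAX and MXD proteins was in 6 (4.44%), against 8.33% and 5.43%. The motif GGGGCGGGG of SP and KLF proteins was in 12 (8.89%), against 19.9% and 6.30%. NF-Y (CCAAT) was in 44 (32.6%), against 35.8% and 35.3%, and the TATA box TATAAA in 13 (9.63%), against 10.9% and 16.0%. The TEAD motif GGAATGT was in 3 (2.22%), against 2.89% of protein-coding and 4.39% of lncRNA promoters. The ETS motif CCGGAAGT was in 2 (1.48%), against 5.08% and 1.65%. The NRF1 motif was in 4 (2.96%), against 1.49% and 0.584%, so its share was above both, as for AP-1. A match is a run of letters only and says nothing about binding.

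**Figure D5:**
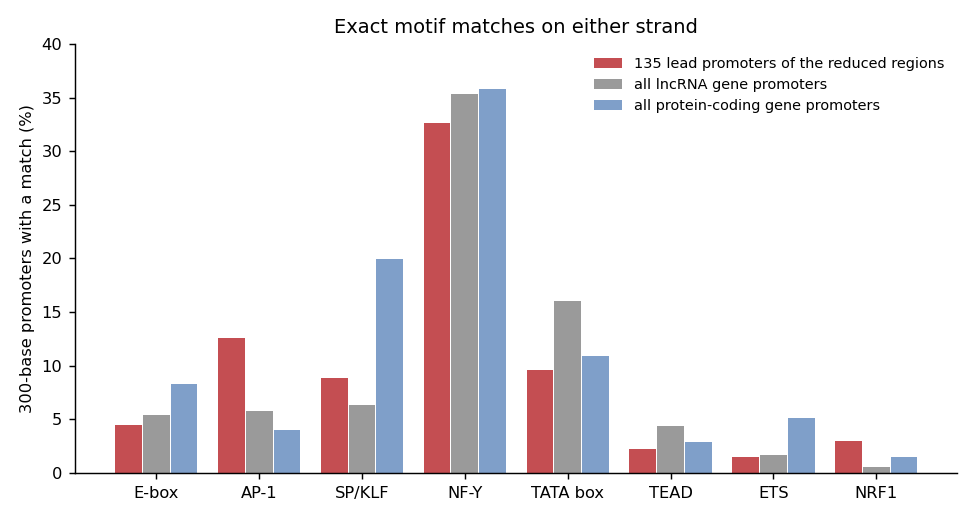
Share in percent of 300-base promoters with an exact match to each of 8 motifs on either strand, for the 135 lead promoters (red), all lncRNA genes (grey) and all protein-coding genes (blue). AP-1 is at 12.6% in red against 5.79% in grey and 3.98% in blue, and the SP/KLF motif at 8.89%, 6.30% and 19.9%.

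Sequence repeated elsewhere limits 13 of the regions. The authors kept reads that aligned to several places and reported 1 alignment for each, so reads from near-identical copies cannot be told apart. Over 20% of the sampled 96-base sequences of these 13 occurred more than once in the genome (9.63% of the regions, against 1.37% with a protein-coding TSS), while 105 regions had no such sequence. The highest shares were 89.5% at DUXAP9 and 89.1% at DUXAP10, pseudogenes on chromosome 14, and 75.2% at AP000525.9. Others among the 13 were MIR4435-2HG at 61.4% and CYTOR at 51.3%. MIR100HG, LINC-PINT, MIR222HG, MALAT1, NEAT1 and DLEU2 had none.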

How the data were processed

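Native H3K4me3 ChIP-Seq of MDA-MB-231 cells was deposited by the authors as regions with other H3K4me3 in treated than in untreated cells. Per the labels and the methods, reads were checked with FastQC (version 0.10.0), aligned to hg19 with Bowtie (version 1.0.0), and compared by SICER-df; MACS2 (version 2.1.0) made signal tracks that were not used here. The lists carry an FDR of 1e-15 in their names. The study's results give this threshold for promoters with reduced H3K4me3, and it is stricter than the one in the methods for the same comparison. The deposited lists hold positions only, with no count, fold or p-value, and depth is unknown here.

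Positions are printed from 1. Transcripts came from GENCODE release 44 mapped to GRCh37. RefSeq hairpins (1562, of which 10 were not matched) were placed on GRCh37 by exact sequence, and 278 more miRNA genes came from GENCODE, 1830 in all. Overlap needed 1 bp. Shares have exact Clopper-Pearson 95% intervals. The region rule and overlap were tested on simulated data. Members, gene lists and motifs were chosen with earlier results of these data known. By rule, the text names the 10 longest regions, the 12 longest also on the 1 μM list, those at listed genes, the 15 with most hosted miRNA genes, the 5 with most genes and those nearest the 3 kb limit. Other genes were named after their values were seen. With 1 library per condition nothing was tested. Alternatives varied the start sites, gene types, windows, region length, merging and overlap. The software was Python (version 3.11.15), pysam (0.24.0), scipy (1.17.1), numpy (2.4.6), pandas (2.3.3) and matplotlib (3.10.9). The sequence of 1 further promoter is not reported here.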

Additional observations from a re-analysis of the deposited data

How the results depend on the processing

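The 6 summary values were recomputed under the alternatives, giving 63 values, of which 58 stayed close to the value reported: within its 95% interval for a share or the median, and within 1.5 times for a count. Requiring at least 1000 bp removed none of the 135 regions, so that alternative could change only their share of the reduced regions. With gene starts only in place of all transcripts' start sites, the share of reduced regions became 9.06%, the median length 4599 bp and the CpG-rich share 37.4%. A window of 0.5 kb gave a CpG-rich share of 34.1%. With genes that have a curated RefSeq transcript, an alternative chosen after seeing the data, the share of regions was 4.36%. Numbers of regions ranged from 90 to 187 and of genes from 142 to 240. The share overlapping the 1 μM list ranged from 8.89 to 11.1%. Leaving out the regions over 20% repeated sequence, also added after seeing the data, gave 122 regions and a median of 4199 bp. A stricter FDR could not be applied to lists of positions. No paired analysis was possible because there was 1 library of each kind. Intervals cover counting error only, and how deep each library was sequenced is not known here.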
